A study of Mus musculus with 4 samples.

Results

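The genes examined were 50 named genes of the cell division cycle, chosen by name from a list of G1/S, DNA replication and mitosis genes. All 50 were found by symbol among the 12208 genes of the deposited table, and all 50 were among the 12160 genes tested. They were measured by RNA sequencing in 3T3 cells, which the labels give as a mouse pre-osteoblast line. Cells received control treatment (NC in the sample titles) or recombinant LTα1β2, a lymphotoxin heterotrimer (LTAlpha1Beta2 in the labels, rhLTα1β2 in the series title), for 24 h or 48 h. The 4 groups were therefore control at 24 h, LTα1β2 at 24 h, control at 48 h and LTα1β2 at 48 h, with 1 library in each. The sources used here do not give the dose, the cell density or whether control cells received a carrier. The name 3T3 is shared with fibroblast lines, and no clone is named. By its markers the line expressed Runx2 (67.5 to 126 CPM, reads per 1000000 reads of the library, over the 4 libraries). It also expressed Sp7 (7.93 to 35.1 CPM) and Col1a1 (7356 to 15684 CPM), while Bglap was at 1.13 to 1.33 CPM. Alpl and Ibsp were not found by symbol among the 12208 genes. Of the 6 fibroblast markers 5 were measured, with a summed level of 12191 to 20198 CPM, most of it Col1a2 (10513 to 17106 CPM). Col3a1 was at 1382 to 2682 CPM, Pdgfrb at 177 to 305 CPM and Pdgfra at 107 to 152 CPM. S100a4 was low, at 3.88 to 10.4 CPM, and Thy1 was not among the 12208 genes. The pre-osteoblast markers summed to 7433 to 15836 CPM, most of it Col1a1. Of the 5 macrophage markers 3 were measured, and their summed level was 57.4 to 85.9 CPM, nearly all of it Lyz2. The endothelial markers (Pecam1, Cdh5 and Kdr) and epithelial markers (Epcam, Cdh1 and Krt18) were not found by symbol among the 12208 genes. The libraries held 11355974 to 15995777 reads, worked back from the CPM. The treated 48 h library stood apart in transcript length: its read-weighted median length (the longest coding transcript of each gene, weighted by reads) was 2848 bases, against 3329 to 3414 bases in the other libraries.

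Cells that divide pass through G1, S, G2 and M phases. D-type cyclins with the kinases CDK4 and CDK6, and then E-type cyclins with CDK2, inactivate the retinoblastoma protein and release the E2F transcription factors, which switch on genes for DNA synthesis. The MCM helicase is loaded on replication origins by CDC6 and CDT1, and PCNA holds the polymerase on the template. Later, FOXM1 and B-MYB with the MuvB complex switch on genes for mitosis, such as those for cyclin B, Polo and Aurora kinases, kinetochore proteins and motor proteins of the spindle. The inhibitors p21 (Cdkn1a) and p27 (Cdkn1b) restrain the cyclin-dependent kinases. Because these genes are switched on in sequence, their levels in a culture follow both how many cells are in cycle and how much RNA each makes, and in bulk RNA fewer cycling cells and less RNA per cell cannot be told apart.

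The members were divided by role into 15 replication genes, 21 mitosis genes, 9 G1/S cyclin and kinase genes, 3 transcription factor genes and 2 inhibitor genes. Promoters of the replication and mitosis members are shown first, because these roles are compared below and are controlled through different promoter elements. Sequences are from RefSeq (GRCm38.p6), read 5′ to 3′ on the strand of the gene, and stop at its annotated start or, for Cdk1 and Cdc20, 26 and 9 bases short of it. Capitals mark 3 kinds of motif on either strand. They are E2F sites (TTTCCCGC, TTTGGCGC, TTTCGCGC, TTTGCCGC or TTTGGCGG), the cell cycle homology region or CHR (TTTGAA or TTCGAA) and the CCAAT box (CCAAT, read as ATTGG on the other strand).
Cdc6 (chr11:98908001-98908150, plus strand): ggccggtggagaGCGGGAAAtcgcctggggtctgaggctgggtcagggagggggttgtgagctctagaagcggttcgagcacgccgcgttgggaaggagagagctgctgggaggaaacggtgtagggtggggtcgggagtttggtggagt
Mcm5 (chr8:75109349-75109508, plus strand): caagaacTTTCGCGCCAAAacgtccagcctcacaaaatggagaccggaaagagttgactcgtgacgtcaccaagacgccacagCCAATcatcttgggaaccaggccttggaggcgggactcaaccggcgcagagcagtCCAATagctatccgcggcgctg
Mcm6 (chr1:128359706-128359825, minus strand): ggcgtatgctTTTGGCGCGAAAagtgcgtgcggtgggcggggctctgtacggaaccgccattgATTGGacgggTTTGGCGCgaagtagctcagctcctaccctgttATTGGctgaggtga
Mki67 (chr7:135716380-135716579, minus strand): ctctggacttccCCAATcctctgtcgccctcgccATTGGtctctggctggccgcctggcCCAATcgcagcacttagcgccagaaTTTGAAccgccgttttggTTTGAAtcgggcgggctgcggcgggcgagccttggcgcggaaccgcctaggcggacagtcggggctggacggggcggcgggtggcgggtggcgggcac
Top2a (chr11:99024190-99024389, minus strand): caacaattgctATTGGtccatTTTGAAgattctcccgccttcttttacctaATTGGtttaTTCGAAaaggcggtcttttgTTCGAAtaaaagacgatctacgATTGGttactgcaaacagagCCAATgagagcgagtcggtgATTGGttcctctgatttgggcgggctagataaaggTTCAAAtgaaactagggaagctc
Cdk1 (chr10:69352939-69353052, minus strand): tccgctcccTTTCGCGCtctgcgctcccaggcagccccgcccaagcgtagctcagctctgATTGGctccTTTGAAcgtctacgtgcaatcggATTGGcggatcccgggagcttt
Kif11 (chr19:37376322-37376381, plus strand): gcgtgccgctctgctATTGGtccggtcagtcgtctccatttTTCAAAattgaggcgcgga
Cdc20 (chr4:118437353-118437413, minus strand): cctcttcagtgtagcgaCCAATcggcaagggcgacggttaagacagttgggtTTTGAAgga
The first capital run of Mcm5 and that of Mcm6 each hold 2 E2F matches that overlap, 1 on each strand; a site on the other strand reads as its reverse complement, as in Cdc6. Cdk1 carried an E2F site, a CHR and CCAAT boxes together, and Cdc6 an E2F site alone in the stretch shown.

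RefSeq windows of 300 bases (250 before the start and 50 after) were matched for 39 of the 50 members. No window was matched for Foxm1, Kif20a, Ccna2, Aurkb, Mcm4, Cdc25c, Ccne2, Ccnd1, Tpx2, Ccnd2 and Gins2. An E2F site as spelled above lay in a window of 7 of 13 replication genes and 1 of 17 mitosis genes, against 3.18% of the 27025 genes in the promoter table and 5.81% of the 9238 tested genes matched there. A CHR lay in a window of 14 of 17 mitosis genes and 2 of 13 replication genes, against 21.7% of all and 16.5% of tested genes. A CCAAT box lay in a window of 16 of 17 mitosis genes and 9 of 13 replication genes, against 41.1% and 43.6%. E2F sites were thus found more often in the windows of replication genes and CHRs in those of mitosis genes. A match is a description of letters and shows no binding.

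Whether treatment changed these genes on average over 24 h and 48 h was asked with an additive fit of time and treatment in limma. The 24 h and 48 h pairs stand as repeats in it. Its treatment effect is the mean of the 24 h and 48 h log2 folds, and differences between them enter its spread. Mki67, with log2 folds of 0.06 and -0.62, thus had a limma log2 fold of -0.28. A change at 1 time only was therefore not tested. No member passed. With limma's Benjamini-Hochberg threshold of 0.05, 0 of 50 were called higher and 0 lower, against 2.92% of the 12160 tested genes that rose and 2.27% that fell. At an unadjusted limma p below 0.05 there was 1 member, Ccnd2, against 16.3% of tested genes, and limma voom on the recovered reads called 0. The limma log2 fold of Ccnd2, a D-type cyclin gene, was -0.46 ± 0.18 (SE; adjusted p = 0.142). Leaving out a library also removes the time term and leaves 1 library in an arm, which is assumed to vary like the other arm's 2, taken at different times. The spread in those fits therefore comes from 1 pair of libraries, and the lone arm has no replicate. Without the treated 48 h library, Ccnd2 was called lower (log2 fold -0.37, limma adjusted p = 0.00341) and Cdk6, which encodes a partner of the D-type cyclins, higher (0.36, limma adjusted p = 0.00209), against 3.31% and 3.04% of tested genes called higher and lower. Without the treated 24 h library 5 members were called higher and 22 lower, against 15.5% and 25.2% of tested genes, and Cdk6 was then among the lower (log2 fold -0.27, limma adjusted p = 0.0104). That fit sets the treated 48 h library alone against both controls. Without the 24 h control 0 members passed, against 0.189% and 0.0658% of tested genes called higher and lower, and without the 48 h control 0, against 0.132% and 0.0493%.

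At a single time there was no test, and members are given by level and by a size limit of 1.5-fold on log2(CPM + 1). At 24 h 0 of 50 members were 1.5-fold higher or lower in treated cells, against 1.48% and 1.35% of tested genes. At 48 h 0 were 1.5-fold higher and 1, Mki67, was 1.5-fold lower, against 7.39% and 6.28%. The median log2 fold of the 50 members was 0.06 at 24 h and -0.17 at 48 h, where that of all tested genes was 0.02 and -0.09. At 24 h 15 of 50 members lay below 0 (30.0%, against 45.1% of tested genes), and at 48 h 37 of 50 (74.0%, against 59.3%). Above control at 24 h and below it at 48 h were 24 of 50 members, which compares with 26.1% of tested genes. In 10 of 50 the counting interval lay above 1 and then below 1, against 3.83% of tested genes, which were not matched to the members in read depth. The difference between the 2 times was not tested.

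**Figure D1:**
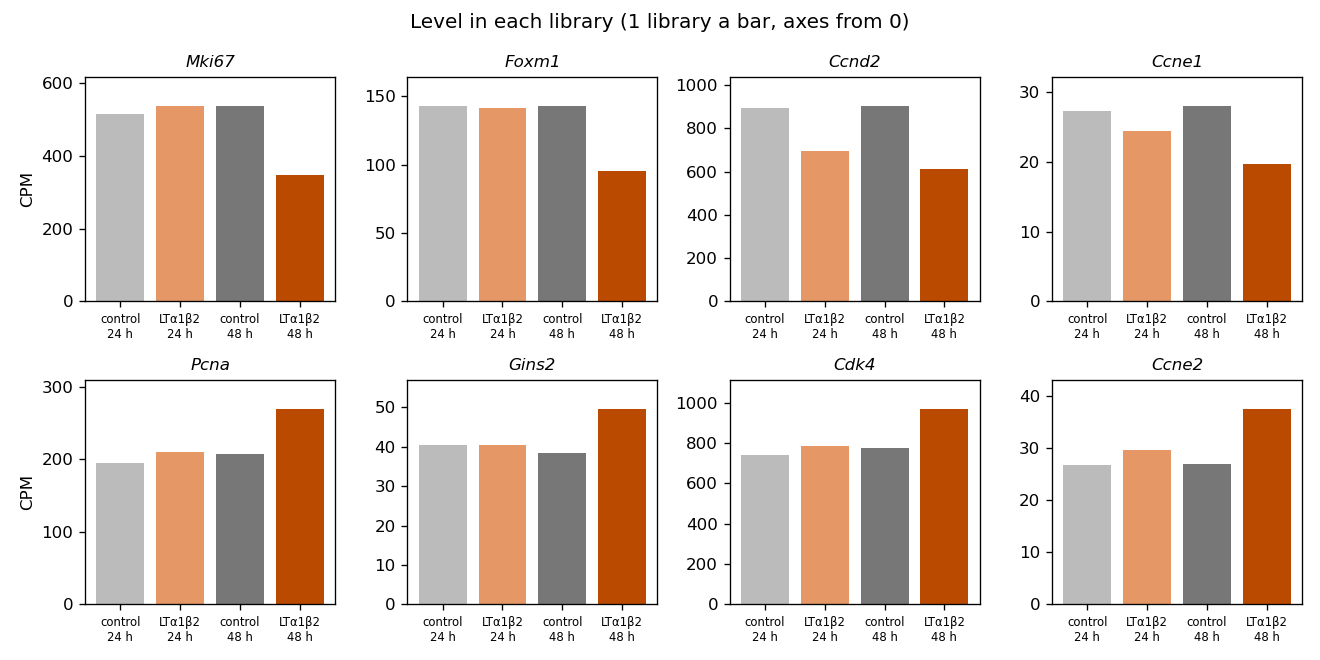
Level in CPM (vertical axes from 0) of 8 members in each of the 4 libraries, 1 library a bar. The upper 4 genes were lowest in the treated 48 h library, from 19.6 CPM for Ccne1 to 614 CPM for Ccnd2, and the lower 4 were highest in it, from 37.4 CPM for Ccne2 to 966 CPM for Cdk4.

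Among the 15 replication members, 13 lay above control at 24 h and 6 at 48 h. Pcna, the sliding clamp of the polymerase, measured 195 (control) and 210 (treated) CPM at 24 h, and 207 and 269 CPM at 48 h. Its ratio of treated to control was 1.08 (95% counting interval 1.02 to 1.13) and 1.30 (1.23 to 1.36), and its treated 48 h library was above the other 3. Gins2, a subunit of the replicative helicase, was at 40.6 and 40.6 CPM at 24 h and at 38.4 and 49.5 CPM at 48 h, with ratios of 1.00 (0.894 to 1.12) and 1.29 (1.14 to 1.46). Tyms, thymidylate synthase, had 84.1 and 95.7 CPM at 24 h and 90.0 and 99.9 CPM at 48 h, so both treated libraries were above both controls. Counting intervals cover the sampling of reads and not differences between cultures.

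The replication genes with the lowest mean fold were Uhrf1, Rrm2 and Cdc6, each lowest in the treated 48 h library. Cdc6, the loader of the MCM helicase, was at 32.9 and 36.6 CPM in control and treated cells at 24 h and at 35.9 and 27.4 CPM at 48 h (ratio 0.763, 0.659 to 0.883). Uhrf1, which recruits the maintenance DNA methyltransferase to replicated DNA, was at 154 and 157 CPM at 24 h and at 151 and 118 CPM at 48 h (0.778, 0.725 to 0.834). Rrm2, the small subunit of ribonucleotide reductase, was at 155 and 163 CPM and at 153 and 119 CPM (0.776, 0.724 to 0.832), while the large subunit gene Rrm1 was at 333 and 339 CPM and at 333 and 308 CPM (0.925, 0.884 to 0.967). The 6 subunits of the MCM helicase lay on both sides of 1 at 48 h. Mcm5, Mcm6 and Mcm7 had ratios of 1.07 to 1.09, and Mcm2, Mcm3 and Mcm4 ratios of 0.863 to 0.932; at 24 h all 6 were between 0.973 and 1.07. The remaining members were Cdt1, which loads the helicase with CDC6, at 0.871 of control at 48 h, and Tk1, thymidine kinase, at 0.982.

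**Figure D2:**
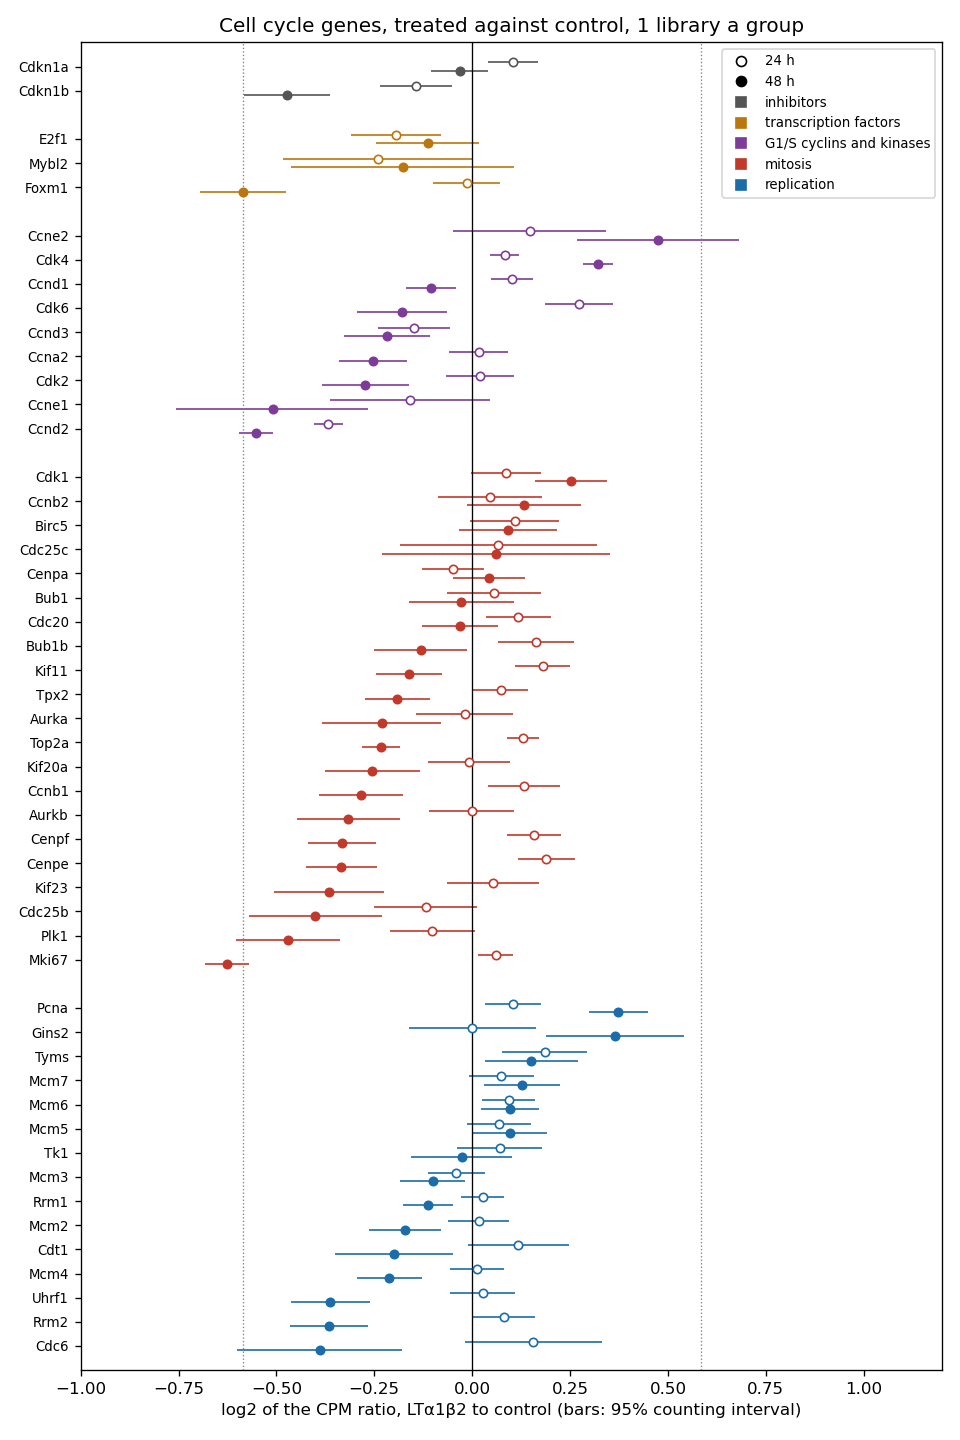
Ratio of CPM in LTα1β2-treated to control cells for the 50 members, on a log2 scale, at 24 h (open) and 48 h (filled), grouped by role; bars are 95% counting intervals and dotted lines mark 1.5-fold. Most mitosis members lie right of 0 at 24 h (15 of 21) and left of it at 48 h (16 of 21). Of all tested genes 45.1% lay below 0 at 24 h and 59.3% at 48 h.

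Among the 21 mitosis members, 15 lay above control at 24 h and 5 at 48 h. Below it were 6 at 24 h (28.6%, against 45.1% of tested genes) and 16 at 48 h (76.2%, against 59.3%). Mki67, the proliferation marker that coats mitotic chromosomes, measured 514 (control) and 536 (treated) CPM at 24 h, and 536 and 347 CPM at 48 h. The ratio was 1.04 (1.01 to 1.08) and then 0.648 (0.623 to 0.674), and the treated 48 h library lay below the other 3, which ran from 514 to 536 CPM. Plk1, the Polo kinase, was at 93.4 and 87.0 CPM at 24 h and at 92.5 and 66.8 CPM at 48 h (0.722, 0.659 to 0.792), so that both treated libraries were below both controls. Cdc25b, a phosphatase that activates CDK1, was at 63.3 and 58.3 CPM and at 55.2 and 41.8 CPM (0.758, 0.673 to 0.852), the control being lower at 48 h than at 24 h as well. The 48 h ratios of the Aurora kinase genes Aurka and Aurkb were 0.852 and 0.803, and those of the cytokinesis motor genes Kif23 and Kif20a were 0.777 and 0.838.

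Mitosis genes with the highest mean fold were Cdk1, Birc5 and Ccnb2. Cdk1, the mitotic kinase, was at 129 and 137 CPM in control and treated cells at 24 h and at 144 and 171 CPM at 48 h (1.19, 1.12 to 1.27). Its partner genes differed at 48 h: Ccnb2 was at 60.1 and 65.9 CPM (1.10, 0.99 to 1.21), and Ccnb1 at 130 and 107 CPM (0.822, 0.763 to 0.885). Birc5, survivin, was at 78.8 and 85.0 CPM at 24 h and at 83.0 and 88.5 CPM at 48 h. Top2a, the topoisomerase that untangles sister chromatids, was at 565 and 618 CPM and then at 591 and 503 CPM, with ratios of 1.09 (1.06 to 1.13) and 0.851 (0.822 to 0.881).

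Before any allowance for transcript length, several further genes of the kinetochore and spindle were above control at 24 h and below it at 48 h. The kinetochore motor gene Cenpe had ratios of 1.14 and 0.793, Cenpf 1.12 and 0.794, the spindle motor gene Kif11 1.13 and 0.894, and the checkpoint kinase gene Bub1b 1.12 and 0.913. Tpx2, the activator of Aurora A, had ratios of 1.05 and 0.876. Of the others, Cdc20 (the activator of the anaphase-promoting complex), Bub1, Cenpa (the centromeric histone) and Cdc25c lay between 0.979 and 1.04 at 48 h.

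Replication and mitosis members were then compared. At 24 h their median log2 folds were 0.07 and 0.06, a difference of 0.01. At 48 h they were -0.10 and -0.23, so the replication median was 0.13 higher. At 48 h 9 of 15 replication and 16 of 21 mitosis members lay below 0, against 59.3% of all tested genes. In summed CPM the replication members went from 2242 to 2191 at 48 h (ratio 0.977) and the mitosis members from 3309 to 2813 (0.850), of which Mki67 and Top2a were the most abundant. At 24 h the sums were 1.04 and 1.06 of control. Members share libraries and are not replicates, so the difference has no test.

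**Figure D3:**
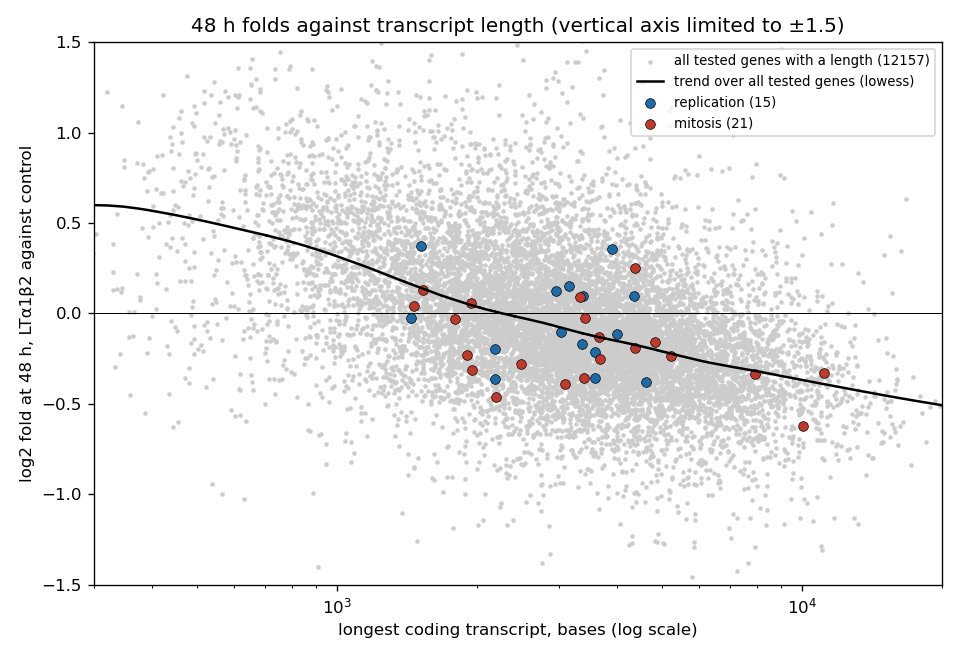
Log2 fold at 48 h (LTα1β2 against control) against the longest coding transcript of each gene on a log axis, for 12157 tested genes with a length (grey), their lowess trend (black), 15 replication members (blue) and 21 mitosis members (red). The trend declines with length, and Mki67 (10061 bases), Cenpe and Cenpf lie at its long end.

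Allowing for transcript length changed this comparison. Over 12157 tested genes the 48 h fold declined with length (Spearman's rho = -0.471 across genes, a description with no p), which was not so at 24 h (-0.026). The 2 roles had similar median lengths, 3371 and 3398 bases, but the mitosis members included Cenpf (11130 bases), Mki67 (10061 bases) and Cenpe (7910 bases). With the trend over all tested genes removed from each library, the 48 h medians were -0.02 for replication and -0.02 for mitosis, a difference of -0.01. That value depended on how a gene's length was set. With the median in place of the longest coding transcript the medians were 0.00 and -0.10, and the difference was 0.10. Without Mki67, Cenpe and Cenpf the difference was 0.07 as deposited, 0.04 with the longest-transcript trend removed and -0.002 with the median-length trend removed. The 48 h difference thus ran from -0.01 to 0.13 over these 6 values, and the 24 h difference from -0.002 to 0.01.

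**Figure D4:**
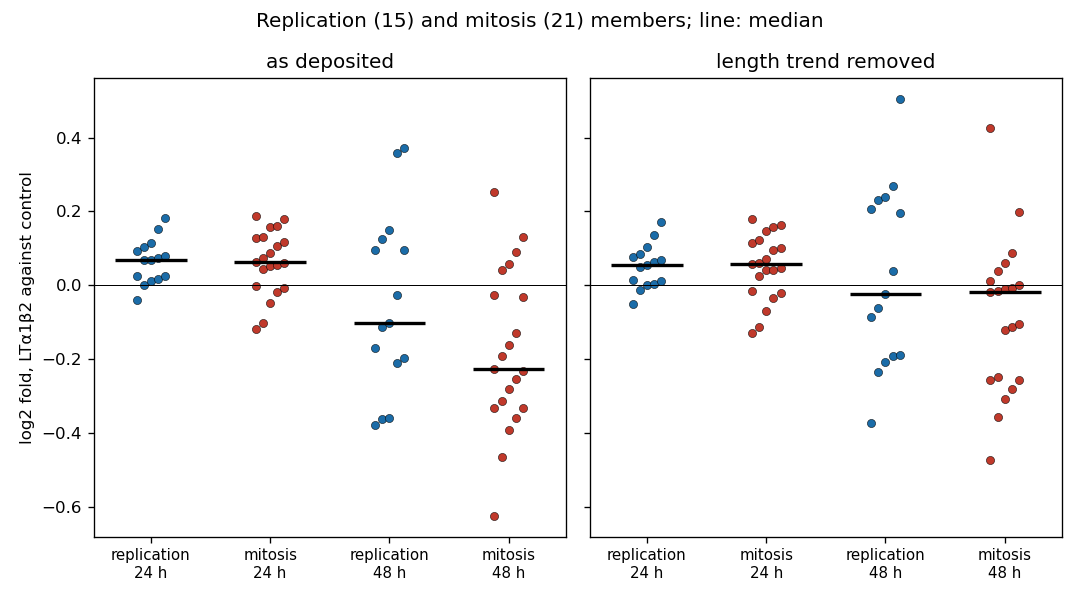
Log2 folds of the 15 replication and 21 mitosis members at 24 h and 48 h, as deposited (left) and with the trend on the longest coding transcript removed (right); each point is 1 gene and the line is the median. The 48 h medians are -0.10 and -0.23 as deposited and -0.02 and -0.02 with the trend removed, while the genes of each role still spread over both sides of 0.

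Removing the length trend moved single genes unequally. The 48 h log2 fold of Mki67 went from -0.62 to -0.26, or to -0.35 with the median transcript length, and with the longest-transcript trend removed 0 of 50 members were 1.5-fold higher and 0 lower, against 5.9% and 4.09% of tested genes. With the median-length trend removed 1 member was 1.5-fold higher (Ccne2, 0.60) and 1 lower (Ccnd2, -0.66), against 7.06% and 4.21% of tested genes. The folds of Cenpe and Cenpf went from -0.33 and -0.33 to -0.01 and 0.06 with the longest transcript and to -0.11 and -0.19 with the median length, so the sign of Cenpf depended on the length used. That of Top2a went from -0.23 to -0.01, or 0.04 with the median length. Plk1 (2199 bases) was at -0.46 before and -0.47 after, Aurkb (1950 bases) at -0.31 and -0.36, and Rrm2 (2193 bases) at -0.36 and -0.37. With the longest-transcript trend removed the shortest transcripts moved down, and 2 of them crossed 0. Cenpa (1466 bases) went from 0.04 to -0.11 and Ccnb2 (1531 bases) from 0.13 to -0.01. Tk1 (1440 bases) went from -0.03 to -0.19 and Pcna (1518 bases) from 0.37 to 0.23. With the median transcript length Cenpa was at -0.19, Ccnb2 at 0.12, Tk1 at -0.06 and Pcna at 0.35. The sign of Ccnb2 thus depended on the length used. Gins2 went from 0.36 to 0.50 and Cdk1 from 0.25 to 0.43, or 0.18 for Cdk1 with the median length. After removal 8 of 15 replication and 14 of 21 mitosis members lay below 0, against 51.0% of tested genes. Within each role the spread of the members was wider than the distance between the medians, from -0.37 to 0.50 in replication and from -0.47 to 0.43 in mitosis.

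Of the G1/S cyclin genes, the D-type and E-type members differed among themselves. Ccnd2 measured 894 (control) and 693 (treated) CPM at 24 h, and 901 and 614 CPM at 48 h, with ratios of 0.775 (0.756 to 0.795) and 0.682 (0.662 to 0.702). Both of its treated libraries were below both controls. Ccnd1 was at 351 and 376 CPM at 24 h and at 342 and 318 CPM at 48 h (1.07 and 0.930), and Ccnd3 at 132 and 119 CPM and at 122 and 105 CPM (0.902 and 0.860). With the length trend removed the 48 h log2 fold of Ccnd2 was -0.28 with its longest transcript (6330 bases) and -0.66 with the median transcript length. Those of Ccnd1 were 0.03 and 0.09.

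The 2 E-type cyclins, which partner CDK2 at the start of S phase, lay on opposite sides of control at both times, with counting intervals that held 1 at 24 h and not at 48 h. Ccne1 was at 27.3 and 24.5 CPM in control and treated cells at 24 h and at 27.9 and 19.6 CPM at 48 h (0.896, 0.778 to 1.03, and then 0.703, 0.592 to 0.832). Ccne2 was at 26.7 and 29.6 CPM at 24 h and at 27.0 and 37.4 CPM at 48 h (1.11, 0.967 to 1.27, and then 1.39, 1.2 to 1.6). Neither passed the additive fit, with limma log2 folds of -0.32 ± 0.18 (SE, adjusted p = 0.38) and 0.30 ± 0.18 (SE, adjusted p = 0.411). With the length trend removed their 48 h log2 folds were -0.53 and 0.53. Ccna2, the cyclin of S and G2 phase, was at 187 and 189 CPM and at 196 and 164 CPM (0.839, 0.790 to 0.891).

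Of the kinases, Cdk4 was at 741 and 784 CPM at 24 h and at 773 and 966 CPM at 48 h (1.06 and then 1.25, 1.22 to 1.28), both treated libraries being above both controls. Cdk6 was at 125 and 151 CPM at 24 h (1.21, 1.14 to 1.28) and at 110 and 96.9 CPM at 48 h (0.883, 0.815 to 0.956). The longest Cdk6 transcript is 11525 bases, and its 48 h log2 fold of -0.18 was 0.22 with the longest-transcript trend removed and -0.31 with the median transcript length. Cdk2 was at 138 and 140 CPM at 24 h and at 121 and 99.9 CPM at 48 h (0.827, 0.766 to 0.894), the control being lower at 48 h too.

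The transcription factor genes were at or below control at both times. Foxm1, the activator of mitosis genes, was at 143 and 141 CPM at 24 h and at 143 and 95.1 CPM at 48 h. Its 48 h ratio of 0.666 (0.618 to 0.719) gave a log2 fold of -0.58 on log2(CPM + 1), just short of the 1.5-fold limit there. That fold was -0.39 with the longest-transcript trend removed and -0.57 with the median transcript length. The ratio at 24 h was 0.990 (0.933 to 1.05), so only the treated 48 h library was low. E2f1, the S-phase activator, was at 85.6 and 74.8 CPM at 24 h (0.874, 0.807 to 0.947) and at 81.2 and 75.0 CPM at 48 h (0.924, 0.844 to 1.01). Mybl2, which encodes B-MYB, had 20.3 and 17.1 CPM and then 18.3 and 16.2 CPM.

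Of the 2 inhibitor genes, Cdkn1b was the lower against control. Cdkn1a measured 257 (control) and 276 (treated) CPM at 24 h (1.07, 1.03 to 1.12) and at 251 and 246 CPM at 48 h (0.978, 0.929 to 1.03), so its treated libraries lay on either side of the controls. Cdkn1b was at 128 and 116 CPM at 24 h (0.905, 0.849 to 0.966) and at 136 and 98 CPM at 48 h (0.720, 0.668 to 0.777), both treated libraries being below both controls. Its limma log2 fold was -0.31 ± 0.17 (SE, adjusted p = 0.372).

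Time was compared within each treatment. These comparisons share their libraries with those above and add no independent value. In control cells 0 of 50 members were 1.5-fold higher or lower at 48 h than at 24 h, against 0.403% and 0.995% of tested genes, and the log2 changes lay between -0.19 and 0.16. Below 0 were 25 of 50 members (54.2% of tested genes), and 20 of 50 with the length trend removed (46.1%), where 0 were 1.5-fold higher or lower (0.461% and 0.905%). In treated cells 0 were 1.5-fold higher and 2 were 1.5-fold lower, against 5.58% and 6.95%: Mki67 (0.648 of its 24 h level) and Cdk6 (0.641, 0.596 to 0.689). Below 0 were 40 of 50 members (64.3% of tested genes), and 33 of 50 with the length trend removed (50.2%), where 0 were 1.5-fold higher or lower (4.36% and 3.13%). The median change in treated cells was -0.14 for replication and -0.28 for mitosis members, against -0.13 for all tested genes, and in control cells -0.02 and 0.02. With the longest-transcript trend removed the treated medians were 0.01 and -0.12, a difference of 0.13, and with the median transcript length -0.06 and -0.13, a difference of 0.07. Without Mki67, Cenpe and Cenpf the treated difference was 0.13 as deposited, 0.14 with the longest-transcript trend removed and -0.0055 with the median length.

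Levels were compared between genes per 1000 bases of the longest coding transcript. Cdk4 was highest in every library, at 361 to 471 CPM per 1000 bases, followed by Pcna (129 to 177 over the 4 libraries), Cdkn1a (118 to 133) and Ccnd2 (97.0 to 142). This order is that of the mean over the 4 libraries. The ranges of Pcna, Cdkn1a and Ccnd2 overlapped, as did that of Ccnd2 with Cenpa (105 to 117) and Top2a (96.3 to 118). The order below Cdk4 is therefore not fixed, and the place of Cdk4 depends on the length used. The median coding transcript is 994.5 bases for Ccnd2 and 1066 bases for Cdk4. In control cells at 24 h Ccnd2 was at 894 CPM and Cdk4 at 741 CPM, so by median length Ccnd2 stood above Cdk4 there. Lowest were Cdc25c (8.20 to 8.95), Cdc6 (5.94 to 7.94) and Mybl2 (4.44 to 5.55). By longest transcript the replication licensing genes thus spanned a wide range, from Cdc6 to Mcm3 at a mean of 64.3.

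Other genes of the same pathways were read from 10 further lists. Of 26 genes of the replication fork and nucleotide supply 1 rose and 0 fell (limma; 2.92% and 2.27% of tested genes): Rpa3, the smallest subunit of the single-strand binding complex, with 28.2 and 32.9 CPM at 24 h and 29.7 and 66.8 CPM at 48 h (limma log2 fold 0.68 ± 0.17 SE, adjusted p = 0.00435). Its longest coding transcript is 670 bases, and its 48 h log2 fold of 1.14 was 0.70 with the length trend removed. Rfc4, a subunit of the clamp loader that loads PCNA, was the next highest, at 25.9 and 49.7 CPM at 48 h and 26.4 and 26 CPM at 24 h. Lowest were Pole, a replicative polymerase gene, and Dnmt1, the maintenance methyltransferase gene, at 48 h log2 folds of -0.42 and -0.36. The lowest 48 h log2 fold in the list was -0.35 with the longest-transcript trend removed and -0.43 with the median-length trend removed. For this list the median log2 fold was 0.05 and then -0.03, close to those of all tested genes (0.02 and -0.09).

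Of 17 origin and helicase genes 1 rose and 0 fell (limma; the same background of 2.92% and 2.27%): Gins1, a partner of Gins2 in the GINS complex, with 9.0 and 14.3 CPM at 24 h and 11 and 16.6 CPM at 48 h (limma log2 fold 0.58 ± 0.19 SE, adjusted p = 0.0469). Gins4, also of GINS, had ratios of 1.13 (1.01 to 1.27) and 1.40 (1.24 to 1.59), and Gins3, named because it completes the complex, ratios of 0.95 (0.791 to 1.14) and 1.06 (0.852 to 1.31). At 48 h the ratio was thus above 1 for all 4 GINS genes, with a counting interval that held 1 for Gins3. Ticrr, needed to fire origins, was at 41.5 and 27.2 CPM at 48 h, and Cdc7, the kinase that fires them, at 17.6 and 13.3 CPM. The lowest 48 h log2 fold in this list was -0.59 as deposited. It was -0.29 with the longest-transcript trend removed and -0.25 with the median-length trend removed. The medians of this list were 0.06 and 0.08.

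Genes of the spindle and cytokinesis had the lowest 48 h median of these lists. Of 21, 0 rose and 0 fell (limma), with 2 at an unadjusted limma p below 0.05, against 16.3% of tested genes. The median log2 fold was 0.09 (24 h) and -0.32 (48 h). The 48 h median was -0.20 with the longest-transcript trend removed and -0.32 with the median-length trend removed. Kif14, a midbody motor gene, was at 73.8 and 72.8 CPM at 24 h and at 72.5 and 40.4 CPM at 48 h (0.558, 0.498 to 0.624). Cit, citron kinase, was at 56.1 and 58.3 CPM and at 45.6 and 27.3 CPM. The lowest 48 h log2 fold in the list was -0.83 as deposited. It was -0.55 with the longest-transcript trend removed and -0.61 with the median-length trend removed. Nusap1, a microtubule-bundling protein gene, stood at the other end, at 65.1 and 84.4 CPM at 24 h and at 77.9 and 96.4 CPM at 48 h. At 48 h 18 of the 21 lay below 0 (59.3% of tested genes). With the longest-transcript trend removed 17 did (51.0%), and with the median-length trend removed 16 (50.7%).

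In the remaining 7 lists 0 genes passed the additive fit (limma). At an unadjusted limma p below 0.05 (16.3% of tested genes) there were 0 of 19 kinetochore and checkpoint genes, 1 of 14 condensin and cohesin genes and 1 of 20 genes of the anaphase-promoting and SCF complexes. There were 1 of 17 Rb, E2F and DREAM genes, 2 of 14 tested inhibitors and p53 targets (of 17 listed), 0 of 7 tested Myc and mitogen genes (of 8) and 0 of 9 histone cluster genes. Their 48 h medians ran from -0.16 to -0.003. The separase gene Espl1 was at 71.2 and 42.6 CPM at 48 h, and its inhibitor gene Pttg1, securin, at 18.0 and 29.7 CPM. The 48 h log2 folds of the condensin and cohesin list ran from -0.73 to 0.69 as deposited. They ran from -0.44 to 0.59 with the longest-transcript trend removed and from -0.64 to 0.56 with the median-length trend removed. E2f8, a repressor of the E2F family, was at 26 and 16.8 CPM at 48 h, and Skp2, which targets p27 for degradation, at 30.5 and 19.9 CPM. The lowest 48 h log2 fold of the Rb, E2F and DREAM list was -0.60 as deposited. It was -0.50 with the longest-transcript trend removed and -0.41 with the median-length trend removed. For the anaphase-promoting and SCF list these values were -0.59, -0.33 and -0.44. Gadd45a, a stress-induced growth arrest gene, was at 6.31 and 9.68 CPM at 24 h and at 6.72 and 10.6 CPM at 48 h, with both treated libraries above both controls (adjusted p = 0.076, limma). Myc was at 59.5 and 84.8 CPM at 24 h (1.43, 1.31 to 1.55) and at 61.7 and 68.4 CPM at 48 h. Histone cluster genes come in near-identical copies, so reads could be shared among them.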

How the data were processed

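RNA sequencing of 4 libraries (control and LTα1β2 at 24 h and 48 h, 1 each) was used. Per the labels' protocols, libraries were made from total RNA with a strand-keeping kit and sequenced as read pairs. The authors deposited CPM for 12208 genes; edgeR 3.30.0 is named in the submitters' processing notes, and the sources used here give no aligner, counter or build. Each CPM column as deposited sums to 1000000, and 100% of values were whole multiples of 1 read within 0.01 of a read, which gave the read totals. The lowest value was 9 to 12 reads. GENCODE M21 (GRCm38) gave symbols for 12205 identifiers and the longest coding transcript of each gene.

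Each fold is log2(CPM + 1) of one library minus that of another, a scale that shrinks the folds of low genes, and was taken for the 12160 genes whose mean CPM reached 1. Ratios of CPM have exact 95% intervals (conditional binomial, Clopper-Pearson). The only test was limma 3.58.1 (R 4.3.3) with time and treatment as terms, trended, two-sided, Benjamini-Hochberg over all tested genes. It has 1 residual degree of freedom and estimated an infinite prior, so the spread used for a gene is that of the trend at its level. Nothing says that libraries came from separate cultures. The length trend is a lowess (span 0.3) of each library's deviation from the gene's mean on log2 length. Members and lists were chosen with earlier results of these data known. Per-library values were given for the 3 highest and 3 lowest members by mean fold in the replication and mitosis roles, every member of the other roles, Mki67, Pcna and Top2a, members past any limit, and, per further list, genes past the test and at most the 2 highest and 2 lowest by mean fold; Gins3 was added after its values were seen.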

Additional observations from a re-analysis of the deposited data

Results flagged for a closer look

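Treated and control libraries stood in opposite directions at the 2 times in both main roles, and this difference was not tested. The median log2 fold of replication members was 0.069 at 24 h and -0.10 at 48 h, and that of mitosis members 0.063 and -0.23. The median of all tested genes had the same signs, 0.02 and -0.09, and with the median-length trend removed the replication median at 48 h was 0.0016, the sign it had at 24 h. In 10 of 50 members the counting interval lay above 1 at 24 h and below 1 at 48 h, against 3.83% of tested genes. The tested genes were not matched to the members in read depth, on which the width of the interval depends. Mki67 was at 1.04 and 0.648 of control, Top2a was at 1.09 and 0.851 of control, Ccnb1 was at 1.10 and 0.822 of control. Bub1b was at 1.12 and 0.913 of control, Cenpe was at 1.14 and 0.793 of control, Cenpf was at 1.12 and 0.794 of control. Kif11 was at 1.13 and 0.894 of control, Tpx2 was at 1.05 and 0.876 of control. Ccnd1 was at 1.07 and 0.930 of control and Cdk6 was at 1.21 and 0.883 of control. Each 48 h value here rests on 1 treated and 1 control library. The treated library's lean towards short transcripts moves with these values: over the 12157 genes with a length, the 48 h fold and transcript length had a Spearman's rho of -0.471. With the longest-transcript trend removed, the 48 h log2 folds of Bub1b, Cenpf, Kif11, Ccnd1 and Cdk6 were 0.002, 0.06, 0.04, 0.03 and 0.22. Those of Mki67, Ccnb1, Top2a, Cenpe and Tpx2 were -0.26, -0.26, -0.01, -0.01 and -0.02. With the median transcript length Cenpf and Cdk6 were at -0.19 and -0.31, and Top2a and Tpx2 at 0.04 and 0.02. The part of length in each of these genes was not tested beyond such length-adjusted values.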

How the results depend on the processing

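Settings other than those above were pseudocounts of 0.25 and 5, no filter, a mean CPM of at least 5, median-of-ratios rescaling, length-trend removal, a 2-fold limit, no time term, no trend and leaving out each library; voom, the median transcript length and leaving out Mki67, Cenpe and Cenpf were added after seeing the data. The edgeR and DESeq2 tests were not run; reads worked back from the CPM were used for counting intervals and voom only. No paired analysis was possible because each group is 1 library with no replicate number in the labels; time is a term in the fit.

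Over all tested genes, 355 rose and 276 fell. Rescaling gave 95 and 84, the median-length trend 144 and 131, and no time term 20 and 11; their prior degrees of freedom were finite and the cause was not tested. Leaving out 1 library gave 16 to 1886 higher and 6 to 3063 lower (23 and 8 without the 24 h control, 402 and 370 without the treated 48 h library). Among members 0 to 5 were called higher and 0 to 22 lower with a library left out, and 0 passed under every other setting of the fit. Cdk6 turned from 0.05 to -0.27 without the treated 24 h library and to -0.05 without the 48 h control.

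The 48 h median of mitosis members was -0.23, against -0.017 (longest-transcript trend removed) and -0.10 (median length); that of replication members was -0.10, against 0.0016 with the median length. Their difference was 0.13, against -0.0056 with the longest-transcript trend removed. The 1 member 1.5-fold lower at 48 h was 0 with rescaling, with the longest-transcript trend removed and at 2-fold, and with the median-length trend removed 1 member, Ccne2, was 1.5-fold higher and 1, Ccnd2, lower (7.06% and 4.21% of tested genes). Depth limits the low members most: the interval of Mybl2 at 48 h ran from 0.726 to 1.08.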
